A study of Mus musculus with 2 samples.

Results

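The 10 genes described here belong to the NF-kB pathway. They comprise the transcription factor subunits Nfkb1, Nfkb2, Rela and Relb, the feedback inhibitors Nfkbia, Tnfaip3 and Birc3, the cytokine gene Il6 and the adhesion molecule genes Icam1 and Vcam1. The members were listed by symbol for their known roles, out of 14450 genes with at least one tag of their own and 55450 genes in the annotation. Digital gene expression tag profiling, which cuts cDNA at CATG sites and sequences the 17 bases that follow, was performed on 2 mouse cell lines with 1 library each. GC-1spg was derived from type B spermatogonia of a 10-day-old mouse and immortalised with the plasmid pSV3-neo. The paper places this line between that stage and the primary spermatocyte. GC-2spd (ts) was derived from spermatocytes of a 6-week-old mouse and transformed with SV40 large T antigen. Both lines were grown in DMEM with 10% FBS and sodium bicarbonate, and no agent that induces NF-kB was named. Line, donor age and the agent named for transformation changed together, so that their parts in any difference cannot be told apart. The names alone do not show that the transforming agents differed. Each line is a single culture as far as the labels say, and no replicate library exists for any difference below. The paper ran qPCR on the same RNA extractions for several genes, including Cxcl1, Itgb7 and Ccl5 but none of the members. It reported that fold changes by qPCR and by tags were highly correlated. That check does not cover the spread between cultures.

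NF-kB is a family of dimeric transcription factors that IkB proteins hold in the cytoplasm of resting cells. Receptors for TNF, interleukins and microbial products activate the IkB kinase, IkB is then degraded, and the freed dimers enter the nucleus. Several of the genes they switch on, including Nfkbia, Tnfaip3 and Birc3, feed back on the pathway, while others encode cytokines and the adhesion molecules that leukocytes bind. In the testis the pathway has been studied in Sertoli cells and in inflammation of the organ. The question behind the comparison of the lines was which genes change between the spermatogonial and the spermatocyte stage.

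A sense tag identifies a transcript by its sequence and its place. The main tag of 8 members is given as the files hold it, with the CATG cutting site in lower case and the 17 bases that identify the gene in capitals, because these tags carried most of the counts that follow. Vcam1 and Nfkbia are given with the additional tags on which their comparison turned.

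Nfkb1: catgCTACAATCAGTGCTGAA

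Nfkb2: catgAGGGAGTCAGGCTGCTG

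Rela: catgCTGAGCTGTGGCCAAGG

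Relb: catgTTTCCCAACCAGTACCG

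Nfkbia, 3′ UTR: catgTGCTTAAAAGTCGCCCC

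Nfkbia, coding sequence: catgGAAGTCATTGGTCAGGT

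Tnfaip3: catgACCCTGGCTTACTGTGT

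Birc3: catgTGTTTTATGTATAGAAA

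Vcam1, 3′ UTR: catgGTACTGTACGGTACGGG

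Vcam1, short coding transcript: catgCATACATTGGGTATGGT

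Vcam1, retained intron: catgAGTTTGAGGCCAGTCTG

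The subunit and inhibitor genes were detected in both lines, and the cytokine and adhesion genes were low or not listed except for Vcam1 in GC-1spg. Each library held an unambiguous sense tag of 9 members. Vcam1 was the only member past the study's thresholds, at 4.01-fold lower in GC-2spd (ts). Called here means a false discovery rate of at most 0.001 in the two-sided Audic-Claverie test, adjusted by Benjamini-Hochberg over all 14450 genes, together with a log2 ratio of at least 1 in either direction. Of the members, 0 were called higher in GC-2spd (ts), against 11.7% of all genes, and 1 was called lower, against 7.84%. At an unadjusted p below 0.05 the Audic-Claverie test put 3 members higher and 3 lower. The exact binomial test gave the same counts, and edgeR's exact test gave 2 higher and 3 lower at an assumed biological coefficient of variation (BCV) of 0.1, 0 higher and 2 lower at 0.2, and 0 higher and 1 lower at 0.4. The share of all genes past this unadjusted p was not computed, so these counts describe the members only. The median log2 ratio of the members, with 0.5 tags added to each count, was 0.33, and that of all genes was 0.13. These tests compare 2 libraries rather than 2 cell stages, and their intervals cover counting error only.

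**Figure D1:**
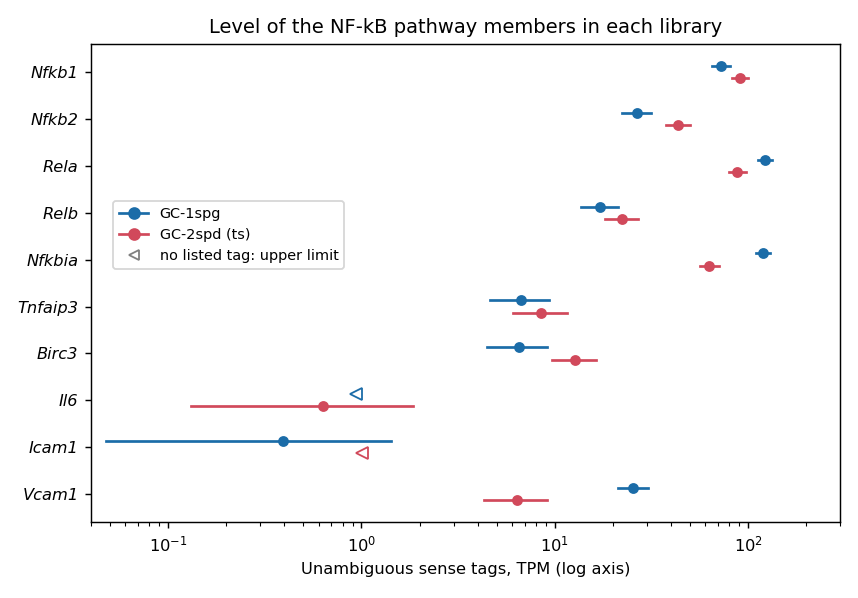
TPM (log axis) of each member in GC-1spg (blue) and GC-2spd (ts) (red), with exact 95% Poisson intervals as lines and open arrowheads for the upper limit where no tag was listed. The intervals of the libraries lie apart for Nfkb1, Nfkb2, Rela, Nfkbia, Birc3 and Vcam1 and overlap for Relb and Tnfaip3, while Il6 and Icam1 lie near the limit of detection.

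Level was expressed as TPM, the copies of a gene's unambiguous sense tags scaled to 1000000 clean tags of the library. One anchored tag is sequenced per cDNA molecule, so TPM here is not scaled by transcript length. In GC-1spg, Rela at 122 TPM and Nfkbia at 120 TPM were the highest members, and their 95% Poisson intervals overlapped. Nfkb1 followed at 72.6 TPM, then Nfkb2 at 26.6 TPM and Vcam1 at 25.4 TPM with overlapping intervals, Relb at 17.2 TPM, and Tnfaip3 at 6.70 TPM and Birc3 at 6.51 TPM with overlapping intervals. In GC-2spd (ts), Nfkb1 at 90.8 TPM and Rela at 88.0 TPM led with overlapping intervals. Nfkbia at 63.0 TPM, Nfkb2 at 43.4 TPM and Relb at 22.2 TPM followed, each with an interval apart from its neighbours. Birc3 at 12.7 TPM overlapped Tnfaip3 at 8.46 TPM, which overlapped Vcam1 at 6.35 TPM. Vcam1 thus stood above Relb in GC-1spg and last of the 8 members found in both lines in GC-2spd (ts).

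The subunit genes had 1211 copies in GC-1spg and 1155 copies in GC-2spd (ts) over all of them, or 239 and 244 TPM. Behind these sums Rela was lower and Nfkb2 higher in GC-2spd (ts), at Audic-Claverie false discovery rates of 7.3e-07 and 4.1e-05, and neither reached the fold threshold. Nfkb1 encodes a precursor that is processed to a DNA-binding subunit of the canonical dimer. It had 368 copies in GC-1spg and 429 copies in GC-2spd (ts), for a log2 ratio of 0.32 (95% exact interval 0.12 to 0.53). Its gene lies at chr3:135584655-135691547 on the minus strand (GRCm38). The main tag lay at the 3′-most CATG site, in the 3′ UTR in exon 25 at chr3:135584804-135584824, and gave 343 and 409 of those copies.

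Rela encodes the subunit that carries the transactivation domain of the canonical dimer. It was lower in GC-2spd (ts), with 416 copies against 621 copies in GC-1spg, a log2 ratio of −0.48 (95% interval −0.66 to −0.29) that did not reach the fold threshold. The gene lies at chr19:5637483-5648130 on the plus strand, and its main tag, in the 3′ UTR in exon 11 at chr19:5647896-5647916, gave 576 and 393 copies. In GC-1spg Rela exceeded Nfkb1, 621 against 368 copies, whereas in GC-2spd (ts) they had 416 and 429 copies.

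Nfkb2 and Relb encode the subunits of the dimer that the non-canonical branch releases. Nfkb2, at chr19:46304320-46312385 on the plus strand, had 135 copies in GC-1spg and 205 copies in GC-2spd (ts), for a log2 ratio of 0.70 (95% interval 0.38 to 1.03). Its copies were spread over 11 tags in each library, 10 of them the same, and the main tag in the coding sequence of exon 21 at chr19:46311635-46311655 gave 71 and 129. Relb, at chr7:19606217-19629438 on the minus strand, had 87 and 105 copies, and its log2 ratio of 0.37 had a 95% interval of −0.05 to 0.80 that included equality. The main Relb tag, in the coding sequence of exon 12 at chr7:19606605-19606625, gave 67 copies in GC-1spg and 97 copies in GC-2spd (ts). Another Relb tag, at the last CATG site of a shorter transcript, gave 12 and 4 copies.

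Of the inhibitors, Nfkbia was the most abundant and was lower in GC-2spd (ts). It encodes IkB alpha, which binds the dimers in the cytoplasm and is itself a target of NF-kB. It had 607 copies in GC-1spg and 298 copies in GC-2spd (ts), 1.90-fold lower in the latter, at a log2 ratio of −0.92 (95% interval −1.13 to −0.72) and an Audic-Claverie false discovery rate of 1.4e-19. This ratio lay just under the fold threshold. It was −1.10 with TMM scaling and −1.01 when scaled to unambiguous sense tags, and Nfkbia was called lower under both. TMM moved the log2 ratio of all genes by −0.17 and changed the share of higher among all called genes from 59.8% to 47.2%, with 8.94% of all genes called higher and 9.99% called lower. The gene lies at chr12:55489410-55492647 on the minus strand. Its tag in the 3′ UTR, in exon 6 at chr12:55489519-55489539, gave 380 and 168 copies, a log2 ratio of −1.08 (95% interval −1.35 to −0.81). The tag in the coding sequence, in exon 2 at chr12:55491716-55491736, gave 204 and 123 copies, a log2 ratio of −0.63 (95% interval −0.96 to −0.30). Both Nfkbia tags were thus lower in GC-2spd (ts), and the coding tag made up 33.6% of the gene's copies in GC-1spg against 41.3% in the other line.

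Tnfaip3 and Birc3 encode ubiquitin-editing proteins, the former removing and the latter adding chains at the receptor complexes. Tnfaip3, at chr10:19000910-19015657 on the minus strand, had 34 copies in GC-1spg and 40 copies in GC-2spd (ts), and its log2 ratio of 0.34 did not differ from equality beyond counting error (95% interval −0.36 to 1.04). Its main tag, in the 3′ UTR in exon 9 at chr10:19001422-19001442, gave 34 and 35 of them. Birc3, at chr9:7848699-7873186 on the minus strand, had 33 copies in GC-1spg and 60 copies in GC-2spd (ts), for a log2 ratio of 0.96 (95% interval 0.33 to 1.62). Its false discovery rate was 0.0060 by the Audic-Claverie test, above the threshold, and TMM scaling gave a log2 ratio of 0.79. The main Birc3 tag lay in the 3′ UTR in exon 9 at chr9:7848806-7848826 and gave 33 and 56 copies. Sense tags that Birc3 shares with other genes, with 1214 and 1213 copies, were left out. Most of these copies came from a tag that matches many other genes, sense or antisense. The 3 inhibitors together had 674 copies in GC-1spg and 398 copies in GC-2spd (ts), or 133 and 84.2 TPM, and Nfkbia made up most of both sums.

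**Figure D2:**
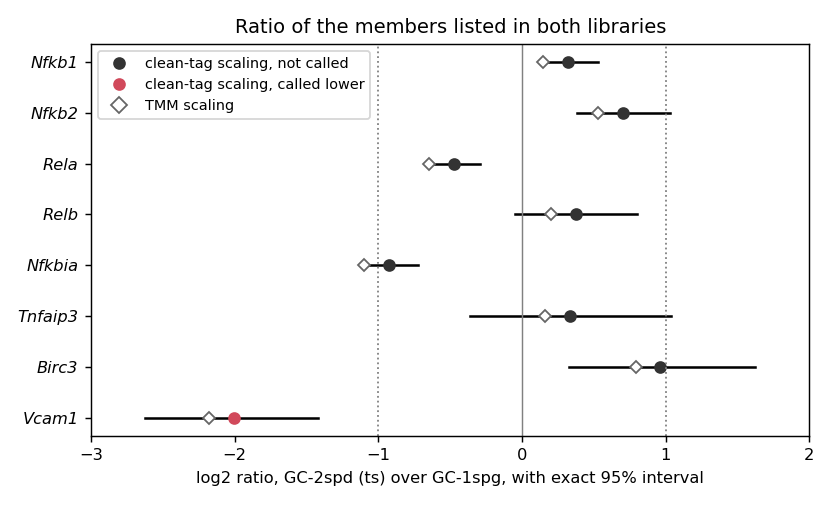
Log2 ratio of GC-2spd (ts) over GC-1spg for the 8 members listed in both libraries, as filled points with exact 95% intervals under clean-tag scaling and open diamonds under TMM scaling, with dotted lines at the fold threshold. Vcam1 lies far below the threshold with an interval of −2.63 to −1.42, Nfkbia at −0.92 just inside the threshold and at −1.10 beyond it with TMM, and the subunits lie between −0.48 and 0.70.

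Il6 was near the limit of detection. It encodes an inflammatory cytokine and lies at chr5:30013114-30019981 on the plus strand. No tag was listed in GC-1spg, and 3 copies were listed in GC-2spd (ts), or 0.635 TPM. Tags with a single copy had been removed from the files, and 0 listed copies allow up to 0.935 TPM in GC-1spg, so that no difference was detectable at this depth. The tag lay in the coding sequence of exon 4 at chr5:30018064-30018084.

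Il6: catgAAGAACAACTTAAAAGA

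Icam1, which encodes a ligand of leukocyte beta 2 integrins, was equally low. The gene lies at chr9:21015985-21028817 on the plus strand. It had 2 copies in GC-1spg, or 0.394 TPM, from a tag with 1 mismatch in a retained-intron transcript, and no listed copy in GC-2spd (ts), which allows up to 1.0 TPM. The tag at its 3′-most CATG site, in the 3′ UTR in exon 7 at chr9:21028663-21028683, had 4 and 2 copies but was shared with an antisense gene, Gm47079, and was left out of these counts. It is shown because it is the place where an Icam1 mRNA would be counted.

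Icam1, shared tag: catgGTCCCAGGCGGCTCCAC

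With sense matches preferred, Icam1 had 6 copies in GC-1spg and 2 copies in GC-2spd (ts), so that it remained low in both lines.

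Vcam1 encodes the ligand of the integrin alpha 4 beta 1 and lies at chr3:116109949-116129688 on the minus strand. It had 129 copies in GC-1spg, or 25.4 TPM (95% Poisson interval 21.2 to 30.2), and 30 copies in GC-2spd (ts), or 6.35 TPM (4.28 to 9.06). The intervals of the libraries did not overlap, and the gene was 4.01-fold lower in GC-2spd (ts) (95% exact interval of the log2 ratio −2.63 to −1.42) at an Audic-Claverie false discovery rate of 1.3e-13. The call was also made under TMM scaling, at −2.18, and was lost with edgeR's exact test at an assumed BCV of 0.2 and of 0.4. The difference was not spread evenly over the tags. The tag in the 3′ UTR in exon 9, at chr3:116110243-116110263 and 294 bases from the annotated end, had 113 copies in GC-1spg and 15 copies in the other line, a log2 ratio of −2.81 (95% interval −3.70 to −2.03).

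The other Vcam1 tags were few. The tag of a short coding transcript, at chr3:116123506-116123526, had 13 and 6 copies, and its log2 ratio of −1.01 had a 95% interval of −2.70 to 0.48. The tag of a retained-intron transcript had 3 and 5 copies, at a log2 ratio of 0.84 (95% interval −1.52 to 3.53). The 3′ UTR tag thus made up 113 of 129 Vcam1 copies in GC-1spg but 15 of 30 copies in the other line. It was the fourth CATG site from the 3′ end of its transcript, and where only the 3′-most site was counted Vcam1 had no copies in either library. Where only the longest annotated transcript was used, which retains an intron and lacks the main tag, Vcam1 had 3 and 7 copies and the log2 ratio was 1.32.

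**Figure D3:**
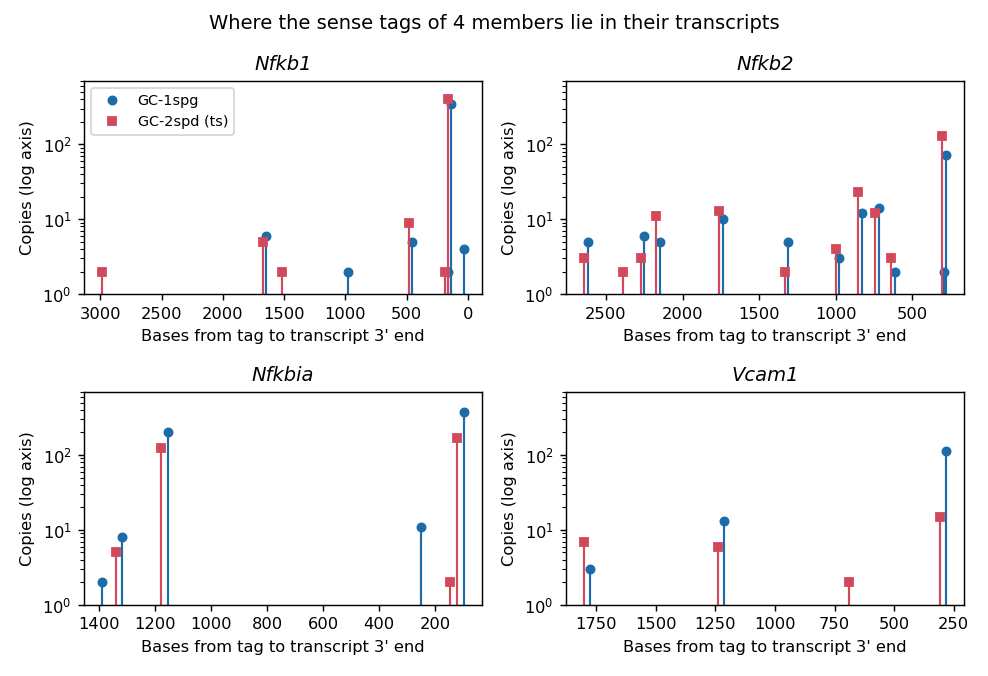
Copies (log axis) of each unambiguous sense tag of Nfkb1, Nfkb2, Nfkbia and Vcam1 against its distance in bases from the 3′ end of the transcript it was assigned to, for GC-1spg (blue circles) and GC-2spd (ts) (red squares), drawn slightly apart sideways. Nfkb1 has 1 dominant tag, Nfkb2 many small ones, Nfkbia 2 tall tags of which both are shorter in GC-2spd (ts), and the tall Vcam1 tag has 113 and 15 copies.

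The promoters of the members were searched for the NF-kB consensus, a sequence of 10 bases, in RefSeq windows from 250 bases before to 50 bases after the start of transcription (GRCm38.p6), on both strands. Of all 27025 genes with a window, 5.14% held a match. Of the members, 7 had a window and 4 of these held a match, namely Nfkb2, Nfkbia, Tnfaip3 and Il6, whereas Rela, Birc3 and Icam1 had a window without one. The search took only sequences that begin with GGG and end with CC, so sites of another form or outside the window would be missed. Nfkb1, Relb and Vcam1 were not analysed here. A match of each gene is shown in capitals, read on the strand that is named relative to the gene, since the sequences differ from each other while all fit the consensus.

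Nfkb2, chr19:46304698-46304707, both strands: GGGAATTCCC

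Nfkbia, chr12:55492667-55492676, opposite strand: GGGAATTTCC

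Tnfaip3, chr10:19015413-19015422, opposite strand: GGGGATTTCC

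Il6, chr5:30013070-30013079, same strand: GGGATTTTCC

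The genes with a match included Nfkbia, which was lower in GC-2spd (ts), Nfkb2 and Tnfaip3 with ratios above 0, and Il6, which was hardly detected. A match describes the sequence only.

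The wider pathway was described with 106 further genes, of which 90 had a tag. In GC-2spd (ts) 16 of the 90 were called higher (17.8%) and 23 were called lower (25.6%). Of all genes with a tag 11.7% were called higher and 7.84% lower. With TMM scaling the pathway counts were 11 higher and 24 lower, beside 8.94% and 9.99% of all genes. The median log2 ratio of the 90 genes, with 0.5 tags added, was −0.55, beside 0.13 for all genes. These lists were drawn up with earlier results known, and the counts describe them only.

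**Figure D4:**
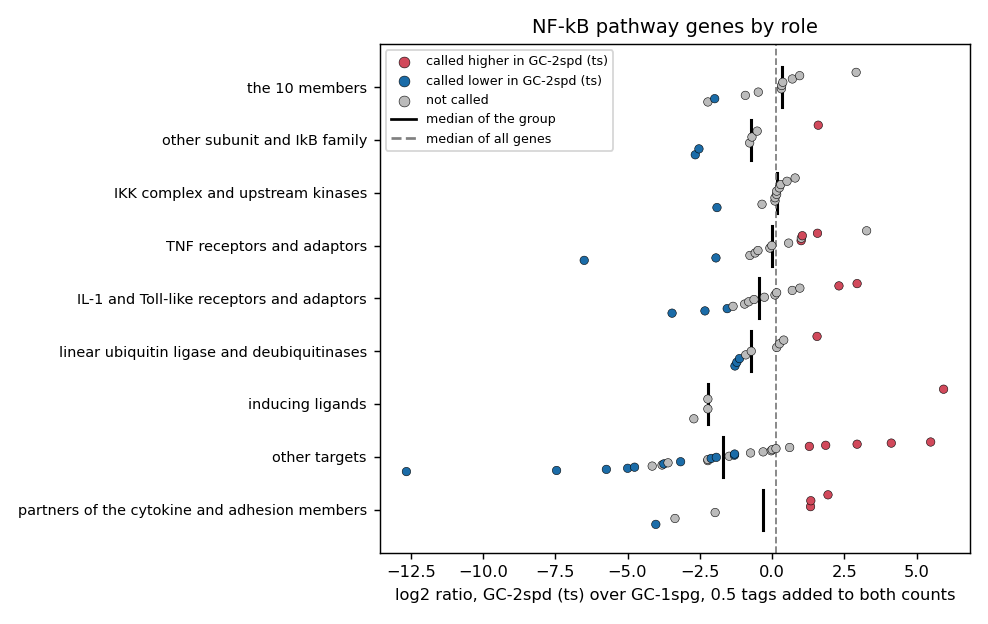
Log2 ratio of GC-2spd (ts) over GC-1spg with 0.5 tags added to both counts, one point per gene, for the 10 members and for the other pathway genes by role, with black bars for the median of each group and a dashed line for the median of all genes. Other targets spread widest, with 11 called lower and 5 called higher, while the kinases lie close together with 1 call. Of all genes 7.84% were called lower and 11.7% higher.

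Among the other subunit and IkB genes 1 was called higher and 2 were called lower of 6 (16.7% and 33.3%), beside 11.7% and 7.84% of all genes. Rel, the subunit prominent in lymphocytes, had 22 copies in GC-1spg and 63 copies in GC-2spd (ts), for a log2 ratio of 1.62. Nfkbie, which encodes IkB epsilon, had 207 and 33 copies, at −2.55. Bcl3, a nuclear IkB protein that works with subunit homodimers, had 341 and 50 copies, at −2.67. Nfkbib with 106 and 69 copies and Nfkbiz with 72 and 39 copies were not called. The direction of Nfkbie and Bcl3 was thus that of Nfkbia, and their 95% intervals, −3.12 to −2.01 and −3.13 to −2.24, did not overlap that of Nfkbia.

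The kinases that act on IkB and those upstream of them were mostly even between the lines. Of all genes 11.7% were called higher and 7.84% lower, and 8.94% and 9.99% under TMM scaling. Of the 10 kinase genes 0 were called higher and 1 was called lower by the Audic-Claverie test and under TMM scaling. This was Ikbke, an IKK-related kinase, with 98 copies in GC-1spg and 24 copies in GC-2spd (ts), for a log2 ratio of −1.93. Tbk1, its close relative, had 738 and 847 copies, and Tab2, an adaptor of the upstream kinase, had 412 and 429 copies, and neither was called. Sense tags that Tbk1 shares with other genes had 152 and 171 copies and were left out.

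Of the 13 TNF receptor and adaptor genes with a tag, 3 were called higher and 2 lower (23.1% and 15.4%), beside 11.7% and 7.84% of all genes. Tnfrsf1b, which encodes the TNF receptor of narrower distribution, had 710 copies in GC-1spg and 172 copies in GC-2spd (ts), for a log2 ratio of −1.94. Tnfrsf11a, the receptor of the osteoclast factor RANKL, had 48 copies in GC-1spg and no listed copy in GC-2spd (ts), and was at least 4.89-fold lower in its own tags, while tags it shares with other genes had 10 and 8 copies. Tnfrsf12a, the receptor of the ligand TWEAK, had 958 and 1794 copies, Ltbr, the lymphotoxin receptor, 387 and 746 copies, and Birc2, the paralog of Birc3, 17 and 48 copies. Their log2 ratios were 1.01, 1.05 and 1.60, and 0.83, 0.87 and 1.43 under TMM scaling, where none of these genes was called. For Tnfrsf12a and Ltbr the ratio fell below the fold threshold, while for Birc2 it stayed above it and the call was kept with scaling to unambiguous sense tags. Tnfrsf1a, the widely expressed TNF receptor, had 246 and 228 copies and Traf2 234 and 128 copies, and neither was called. Sense tags that Traf2 shares with other genes had 9861 and 5592 copies and were left out.

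Of the 14 IL-1 and Toll-like receptor and adaptor genes with a tag, 2 were called higher and 3 lower (14.3% and 21.4%). Of all genes 11.7% were called higher and 7.84% lower. Myd88, the adaptor shared by most of these receptors, rose from 67 copies in GC-1spg to 483 copies in GC-2spd (ts), for a log2 ratio of 2.95. Tlr3, which senses double-stranded RNA and signals without Myd88, had 5 and 25 copies, at a log2 ratio of 2.42. With TMM scaling the ratio was 2.25 and Tlr3 was not called, and with scaling to unambiguous sense tags it was. Tlr4, the endotoxin receptor, had 86 and 27 copies, at −1.57, and Tlr6, which pairs with Tlr2, had 29 and 2 copies, at −3.76. Irak3, an inhibitory member of the IRAK family, had 29 and 5 copies, at −2.43. Irak1 with 192 and 349 copies and Irak2 with 159 and 96 copies were not called. Sense tags that Irak1 shares with other genes had 19702 and 11251 copies and were left out.

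Linear ubiquitin ligase and deubiquitinase genes numbered 9, of which 1 was called higher and 3 lower (11.1% and 33.3%), beside 11.7% and 7.84% of all genes. Rbck1 with 910 and 364 copies and Sharpin with 134 and 51 copies encode subunits of the ligase that builds linear chains, and their log2 ratios were −1.22 and −1.29. Rnf31, the catalytic subunit of the same ligase, had 15 copies in GC-1spg and 42 copies in GC-2spd (ts), for a log2 ratio of 1.59. With TMM scaling the ratio was 1.41 and Rnf31 was not called. Tnip1, a partner of the Tnfaip3 protein, had 202 and 86 copies, at −1.13. Tax1bp1 with 912 and 1016 copies and Cyld with 197 and 243 copies were not called. Their shared sense tags, with 1430 and 1516 copies for Tax1bp1 and 1216 and 1219 for Cyld, were left out.

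The ligands that induce the pathway were sparse. Of 8 genes 4 had a tag, and no sense tag of Tnf, Lta, Il1b or Cd40lg was listed in either library. Tnfsf13b, the B cell survival factor BAFF, had no listed copy in GC-1spg and 28 copies in GC-2spd (ts), and was at least 4.77-fold higher. Ltb with 3 copies and Il1a with 2 copies were listed in GC-1spg only, within the limit that 0 listed copies allow in the other library.

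Other NF-kB targets showed the largest differences, with 5 called higher and 11 lower of 28 genes with a tag. The shares were 17.9% and 39.3%, beside 11.7% and 7.84% of all genes. Under TMM scaling the counts were the same, beside 8.94% and 9.99% of all genes. Saa3, an acute phase protein, had 3446 copies in GC-1spg and no listed copy in GC-2spd (ts), and was at least 126-fold lower in its own tags. Tags that Saa3 shares with other genes had 102 and 150 copies and were left out, so the bound does not cover them. Cxcl1, a neutrophil chemokine, had 1112 and 32 copies, a log2 ratio of −5.02. Ier3, an early response gene, had 682 and 47 copies, at −3.76. Ccl2, a monocyte chemokine, had 1844 and 399 copies, at −2.11, and Sod2, the mitochondrial superoxide dismutase, had 1797 and 679 copies, at −1.30. Sense tags that Sod2 shares with other genes had 46462 and 30536 copies and were left out. The other genes called lower were Cxcl5, Ccl20, Nos2, Mmp3, Tnfaip2 and Irf1. The genes called higher included the lymphocyte chemokines Cxcl10, with 2 and 104 copies at a log2 ratio of 5.80 (95% interval 3.91 to 8.87), and Ccl5, with 9 and 154 copies at 4.20. Csf1, the macrophage growth factor, had 297 and 1003 copies, at 1.86, and F3, the tissue factor that starts coagulation, had 54 and 390 copies, at 2.95. Xiap, an inhibitor of caspases, had 62 and 142 copies, at 1.30. Ccl7 with 322 and 294 copies and Ptgs2 with 295 and 222 copies were not called.

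Partners of the cytokine and adhesion members were also compared, and 3 were called higher and 1 lower of the 6 with a tag. Of all genes 11.7% were called higher and 7.84% lower, and counts over 6 genes describe these genes only. The Il6 receptor chains were both higher in GC-2spd (ts), Il6ra with 19 and 69 copies at a log2 ratio of 1.96, and Il6st with 261 and 613 copies at 1.33. Of the Vcam1 receptor, Itgb1 had 929 and 2194 copies, at 1.34, and Itga4 had no unambiguous sense tag but 5 and 4 copies of shared ones. Itgb7, whose product also binds Vcam1 protein when paired with the alpha 4 chain, had 165 and 9 copies, at −4.09. Of the Icam1 receptor, Itgb2 had 10 and 2 copies and was not called, and neither Itgal nor Itgam had an unambiguous sense tag, while tags that Itgal shares with other genes had 9 and 5 copies. Icam5 had 5 copies in GC-1spg and none listed in GC-2spd (ts). Icam2 and Icam4 had no unambiguous sense tag in either, and shared tags of Icam4 had 4 copies in GC-1spg.

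Markers of other cells that carry these genes were checked, since bulk tags cannot tell fewer cells of a type from less RNA per cell. Of 10 leukocyte markers 3 had an unambiguous sense tag, with 11 copies in GC-1spg and 7 copies in GC-2spd (ts) in all, and Ptprc, Adgre1, Csf1r, Cd68, Lyz2 and Cd3e were among those with none. Of 8 endothelial markers only Kdr had an unambiguous sense tag, with 2 and 4 copies. Sense tags that Pecam1 shares with other genes had 77 and 50 copies and those of Vwf 5 and 9 copies, and Cdh5 had no sense tag of either kind. The germ cell label was not borne out by its markers, since 0 of 10, Ddx4 and Dazl among them, had an unambiguous sense tag in either library. Of sense tags shared with other genes, Sycp1 had 10 and 112 copies and Gfra1 3 and 11 copies. Fibroblast markers had a tag for 6 of 8 genes, with 12899 copies in GC-1spg and 6425 copies in GC-2spd (ts) in all. Sertoli cell markers had a tag for 5 of 8 genes, with 687 and 198 copies, and Leydig cell markers for 2 of 6 genes, with 4 and 5 copies. Of the fibroblast markers 2 were called higher and 2 lower in GC-2spd (ts), and of the Sertoli cell markers 1 was called higher and 1 lower. Of all genes 11.7% were called higher and 7.84% lower. The sums were set largely by Col1a1, with 10465 and 2425 copies, and by Wt1, with 620 copies and none listed. Both sums were lower in GC-2spd (ts), but single markers went either way. Vim, with 984 and 2897 copies, Col3a1, with 50 and 120 copies, and Gata4, with 29 and 138 copies, were called higher. Besides Col1a1 and Wt1, Dcn with 710 and 2 copies was called lower. Vcam1 and Nfkbia were lower as well, and the part of these cell types in those results was not tested.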

How the data were processed

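Total RNA of both lines, with an average RIN of 8.9, was profiled by DGE. The authors removed tags with adaptors, unknown bases or a single copy and deposited, for each distinct tag, its count of copies and its TPM. GC-1spg had 5072149 clean tags and GC-2spd (ts) had 4726808, where 1 copy was worth 0.197 and 0.212 TPM. The deposited TPM equalled the counts divided by these totals, so only counts were used. Tags of 21 bases were matched to GENCODE M21 transcripts (GRCm38) at every CATG site, exactly or else with 1 mismatch. Tags whose best matches, sense and antisense, lay in 1 gene were summed by gene when sense (54.7% and 57.9% of copies). With 1 library per line edgeR's quasi-likelihood test could not be fitted, and the two-sided Audic-Claverie test was used with the study's thresholds. A gene at 0 was set to 0.01 TPM for calls. Where a library listed none of a gene's tags, the bound was the one-sided 95% Poisson limit of 1 unlisted copy per tag seen in the other library. The 14 alternatives included TMM and exact tests in edgeR 4.0.16 (R 4.3.3) at BCV 0.1, 0.2 and 0.4. Python 3.11.15 and scipy 1.17.1 were used, and the calling was tested on simulated data, in which changed genes with few tags were often missed. The text names every member, every partner, and of each other role all called genes, or the 6 with most tags where more were called, with the 2 uncalled genes of most tags. Ligands and markers listed at 0 and the remaining called targets were named in addition, after their values were seen. Members and lists were chosen with earlier results of these data known.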

Additional observations from a re-analysis of the deposited data

Results flagged for a closer look

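Tags outside the unambiguous sense counts were examined for the members, and those above the limit that 0 listed copies allow were noted. Antisense tags of Nfkbia had 98 copies in GC-1spg and 33 copies in GC-2spd (ts), beside 607 and 298 sense copies. Antisense tags of Nfkb1 had 27 and 14 copies, and those of Nfkb2 had 16 copies in GC-1spg and 16 copies in GC-2spd (ts). In GC-1spg antisense tags of Rela had 13 copies and those of Vcam1 had 12 copies, above the limit, whereas the 9 and 2 copies in GC-2spd (ts) were not. Sense tags that Birc3 shares with other genes had 1214 copies in GC-1spg and 1213 copies in GC-2spd (ts), against 33 and 60 copies of its own. Most came from a tag with 1205 and 1196 copies that matches many other genes, sense or antisense. Such copies cannot be assigned to Birc3. Sense tags that Icam1 shares with other genes had 11 copies in GC-1spg and 2 copies in GC-2spd (ts).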

How the results depend on the processing

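Of the member ratios recomputed under 14 alternatives, 127 kept their direction and side of the threshold, 2 were reversed, 2 passed the threshold in addition and 2 lost it. The count of members called lower was 2 under TMM scaling and under scaling to unambiguous sense tags, and 0 with the 3′-most CATG site only, with the longest transcript only, and at BCV 0.2 and 0.4, while 0 members were called higher under any alternative. At BCV 0.2 and 0.4 the pathway genes called lower were 13 and 3 and those called higher 6 and 1, and of all genes 489 and 136 were called lower and 511 and 108 higher. The reversed log2 ratios were 1.32 for Vcam1 with the longest transcript only, which lacks its main tag, 0.10 for Icam1 with antisense tags added, −0.014 for Tab2 with TMM, and 0.0090, 0.012 and 0.038 for Tnfrsf1a with exact matches, the 3′-most site and antisense tags added. Icam1 had 2 sense copies in GC-1spg and 2 antisense copies in GC-2spd (ts), which were summed in that alternative. Tab2 had a log2 ratio of 0.16 under clean-tag scaling, and TMM moved the ratios by −0.17. Tnfrsf1a had −0.0079 under the main setting, and the cause of its reversals was not tested. Of the other named genes' ratios 558 kept their call, 59 lost it, 4 were reversed and 2 gained it. No paired analysis was possible because each line has 1 library. For the same reason no replicate could be left out, and the spread between cultures is unknown. Il6 and Icam1 are limited by depth.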
